A study of Mus musculus with 10 samples.

Results

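The 10 genes described here encode the lysyl oxidases (Lox, Loxl1, Loxl2, Loxl3 and Loxl4), proteinases that trim fibrillar procollagens (Bmp1, Adamts2 and Adamts14) and the enhancers of the C-proteinase (Pcolce and Pcolce2). They were taken by gene symbol from a table of 25239 genes, where all 10 were present. All of them passed the filter on low counts that left 15416 genes for testing. The libraries come from calvarial sutures (the fibrous joints between the flat skull bones) of postnatal day 7 mice, and were made from cells separated by fluorescence-activated sorting. The labels name the populations DDR2-plus (5 libraries), after a collagen receptor kinase, and PSC (5 libraries), which they do not spell out. Both carry the genotype WT in the labels, while the extraction protocol speaks of Ctsk-Cre mice (n = 5), that is, mice with a recombinase under the control of the cathepsin K gene. Any other allele, and which animal gave which library, is not given in the sources used here.

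Fibrillar collagens leave the cell as procollagens with a propeptide at each end. The C-propeptide is removed by BMP1, a metalloproteinase that also has a longer splice form known as mammalian tolloid, and procollagen C-proteinase enhancers bind the propeptide and speed the cut. ADAMTS2 and ADAMTS14 remove the N-propeptide, after which the trimmed molecules assemble into fibrils. Lysyl oxidases then convert lysines and hydroxylysines to aldehydes, from which the covalent cross-links of collagen and elastin form.

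Total counts lay between 43419129 and 62021992 per library. Levels are in CPM, read counts brought to the same library total with trimmed-mean (TMM) factors. Fold changes have DDR2-plus on top, and a gene was called at an adjusted p under 0.05 in edgeR's quasi-likelihood test over all tested genes. Both genes behind the names of the populations and mice were lower in DDR2-plus. Ddr2 was at 112 ± 3.56 CPM in DDR2-plus, against 152 ± 10.7 CPM in PSC, and Ctsk at 107 ± 15.2 CPM in DDR2-plus, against 294 ± 15.0 CPM in PSC (SD, n = 5 each). The size of the Ddr2 difference depended on the scaling. Its log2 fold change was -0.44 with TMM and -0.17 with library size alone (edgeR adjusted p = 0.000165 and 0.0498). Sorting does not read mRNA, so these values check the labels only indirectly. In bulk libraries, fewer cells of a type and less RNA per cell cannot be told apart.

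All 10 genes were called, 7 as lower and 3 as higher in DDR2-plus. Among all tested genes 39.1% were called, 19.0% as lower and 20.1% as higher. Among the 8876 tested genes with a mean of at least 10 CPM, the range that holds all 10, the share was 49.1%, made up of 26.9% lower and 22.1% higher. Lox, Loxl1, Loxl2, Bmp1, Adamts2, Adamts14 and Pcolce were lower, and Loxl3, Loxl4 and Pcolce2 were higher in DDR2-plus. Each family therefore had lower members, and the lysyl oxidases and the enhancers also had higher ones. For 9 genes the change was at least 2-fold, 7 of them lower (6.01% of tested genes) and 2 higher (9.94%). The DDR2-plus and PSC libraries did not overlap in any of the 10 genes, whereas 30.1% of tested genes had no overlap, 14.6% with DDR2-plus lower and 15.6% with DDR2-plus higher. The median log2 fold change was -1.41 over the 10 genes and 0.04 over all tested genes. With library size alone in place of TMM, the median of all tested genes was 0.31 and the split of calls was 5421 higher and 1538 lower, against 3096 higher and 2926 lower with TMM. The 10 genes kept their direction and their call there.

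**Figure D1:**
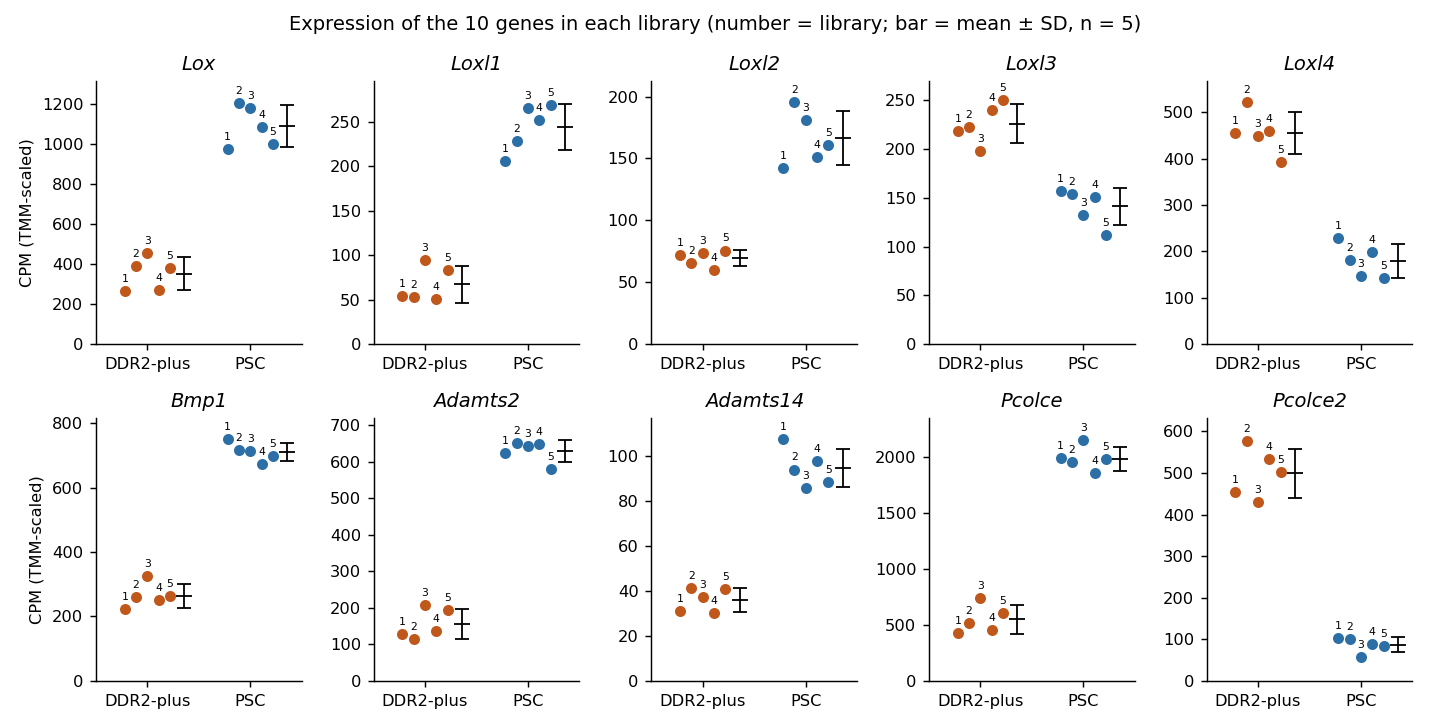
TMM-scaled CPM (linear axes from 0) of the 10 genes in the 5 DDR2-plus libraries (orange, left) and the 5 PSC libraries (blue, right), each dot numbered by library, with the mean ± SD beside the dots. The groups are apart in every panel, with Loxl3, Loxl4 and Pcolce2 higher and the other 7 genes lower in DDR2-plus.

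Promoter sequences of 5 of the 10 genes were at hand from RefSeq (build GRCm38.p6): Loxl4, Adamts2, Adamts14, Pcolce and Pcolce2. Shown are the 250 bases before the annotated start of the N-proteinase genes, which fell together, and of the enhancer genes, which went opposite ways. The windows are chr11:50601835-50602084 (plus strand) for Adamts2, chr10:61273420-61273669 (minus strand) for Adamts14, chr5:137611405-137611654 (minus strand) for Pcolce and chr9:95637378-95637627 (plus strand) for Pcolce2. They are written 5′ to 3′ in the direction of the gene, and capitals mark the GC box GGGCGG or its reverse complement CCGCCC.
Adamts2: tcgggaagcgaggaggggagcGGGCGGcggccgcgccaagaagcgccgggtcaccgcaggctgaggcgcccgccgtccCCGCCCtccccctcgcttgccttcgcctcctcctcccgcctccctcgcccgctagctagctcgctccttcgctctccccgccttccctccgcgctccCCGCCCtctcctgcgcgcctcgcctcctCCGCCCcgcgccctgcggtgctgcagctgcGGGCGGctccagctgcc
Adamts14: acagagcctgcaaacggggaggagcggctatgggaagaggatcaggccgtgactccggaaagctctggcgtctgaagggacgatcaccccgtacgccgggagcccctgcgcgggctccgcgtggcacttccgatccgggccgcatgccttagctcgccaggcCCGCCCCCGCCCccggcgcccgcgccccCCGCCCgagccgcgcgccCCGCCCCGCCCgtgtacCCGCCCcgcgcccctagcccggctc
Pcolce: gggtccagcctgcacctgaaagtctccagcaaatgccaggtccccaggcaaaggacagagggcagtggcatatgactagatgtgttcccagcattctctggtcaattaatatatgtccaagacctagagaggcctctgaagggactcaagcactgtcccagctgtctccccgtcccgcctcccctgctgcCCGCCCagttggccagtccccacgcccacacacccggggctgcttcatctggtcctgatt
Pcolce2: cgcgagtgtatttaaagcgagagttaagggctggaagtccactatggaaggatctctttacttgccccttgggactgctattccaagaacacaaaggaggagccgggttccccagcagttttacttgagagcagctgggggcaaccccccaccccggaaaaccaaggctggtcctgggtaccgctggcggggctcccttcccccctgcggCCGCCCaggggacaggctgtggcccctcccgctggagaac
The N-proteinase genes had the denser windows, with 5 GC boxes and 34 CpG dinucleotides in Adamts2, and 6 GC boxes and 35 CpG dinucleotides in Adamts14, where some boxes overlap or touch. Pcolce had 1 GC box and 5 CpG dinucleotides, and Pcolce2 1 GC box and 10 CpG dinucleotides, where the median over 32851 RefSeq windows of this length was 6 CpG dinucleotides. The whole Pcolce window lies inside the span that the GENCODE annotation gives the gene, which reaches to base 137613784. The windows of Adamts2, Adamts14, Pcolce2 and Loxl4 overlap the spans of their genes only at the end nearest the start. Loxl4, which was higher in DDR2-plus, also had a dense window, with 3 GC boxes and 27 CpG dinucleotides. The box occurs in 32.7% of those windows. Dense windows thus occurred in genes of either direction, and a match describes letters, not a bound site.

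Lox (mm10 chromosome 18, 52516067 to 52529867, minus strand) encodes the founding lysyl oxidase, whose propeptide BMP1 removes. It was at 264, 390, 457, 271 and 379 CPM in DDR2-plus 1 to 5, against 978, 1207, 1184, 1088 and 1003 CPM in PSC 1 to 5. The highest DDR2-plus library stayed below the lowest PSC library by a wide margin, and Lox was 3.10-fold lower in DDR2-plus (log2 fold change -1.63, SE 0.145; edgeR adjusted p = 3.27e-06). Loxl1 (chromosome 9, 58287738 to 58313186, minus strand), the family member known for elastic fibres, was at 54.1, 53.4, 95.2, 50.4 and 83.0 CPM in DDR2-plus, against 206, 229, 265, 252 and 269 CPM in PSC. It was 3.63-fold lower in DDR2-plus (log2 fold change -1.86, SE 0.176; edgeR adjusted p = 5.24e-06), with DDR2-plus 3 and 5 above the other DDR2-plus libraries. Loxl2 (chromosome 14, 69609068 to 69695834, plus strand), known among other things for cross-linking collagen IV of basement membranes, was at 72.3, 65.4, 73.7, 59.9 and 75.7 CPM in DDR2-plus, against 142, 196, 181, 151 and 161 CPM in PSC. The DDR2-plus libraries lay close together and all below the PSC libraries, and Loxl2 was 2.40-fold lower in DDR2-plus (log2 fold change -1.26, SE 0.0996; edgeR adjusted p = 1.45e-06).

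Loxl4 and Loxl3, which like Loxl2 carry scavenger receptor cysteine-rich domains ahead of the catalytic one, went the other way. Loxl4 (chromosome 19, 42593982 to 42612813, minus strand) was at 456, 521, 449, 460 and 393 CPM in DDR2-plus, against 228, 181, 146, 199 and 143 CPM in PSC. Every DDR2-plus library lay above every PSC library, and Loxl4 was 2.54-fold higher in DDR2-plus (log2 fold change 1.34, SE 0.128; edgeR adjusted p = 5.55e-06). Loxl3 (chromosome 6, 83034173 to 83052562, plus strand), whose loss in mice is known to affect the palate and the spine, was at 218, 223, 198, 240 and 250 CPM in DDR2-plus, against 157, 154, 132, 151 and 112 CPM in PSC. Its change of 1.60-fold was the smallest of the 10 genes (log2 fold change 0.68, SE 0.1; edgeR adjusted p = 0.000167). Loxl3 shares 11.6% of its exonic bases with Htra2 on the opposite strand, and the libraries do not mark the strand. Htra2 itself had 21.4 CPM in DDR2-plus, against 28.6 CPM in PSC on average, far below Loxl3. How reads in the shared bases were counted is not stated, and their part in the Loxl3 counts was not tested.

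Set on a scale per exonic length, the make-up of the lysyl oxidase family differed between the populations. Loxl4 held 41.1% ± 4.70 of the summed family level (CPM per kb of exon) in DDR2-plus and 10.5% ± 2.39 in PSC, while Lox held 27.6% ± 4.46 in DDR2-plus and 56.1% ± 2.02 in PSC (SD, n = 5 each). Loxl3 took 18.7% ± 2.61 in DDR2-plus and 7.55% ± 1.00 in PSC. Loxl1 took 7.66% ± 1.95 in DDR2-plus and 18.3% ± 2.22 in PSC, and Loxl2 4.88% ± 0.52 in DDR2-plus and 7.55% ± 0.68 in PSC. On this scale Loxl4 was the leading lysyl oxidase transcript in each DDR2-plus library and Lox in each PSC library. The shares of a library sum to a fixed total, and all 5 genes were already without overlap in CPM. That their shares did not overlap between the groups either is therefore not a separate result. The summed level of the family was lower in DDR2-plus, at 264 ± 21.4 against 407 ± 25.1 CPM per kb. Without the length scaling Loxl4 held 39.1% in DDR2-plus and 9.90% in PSC, and in DDR2-plus 3 Lox then stood slightly above Loxl4, at 35.9% and 35.2%. These shares are a description and were not tested.

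**Figure D2:**
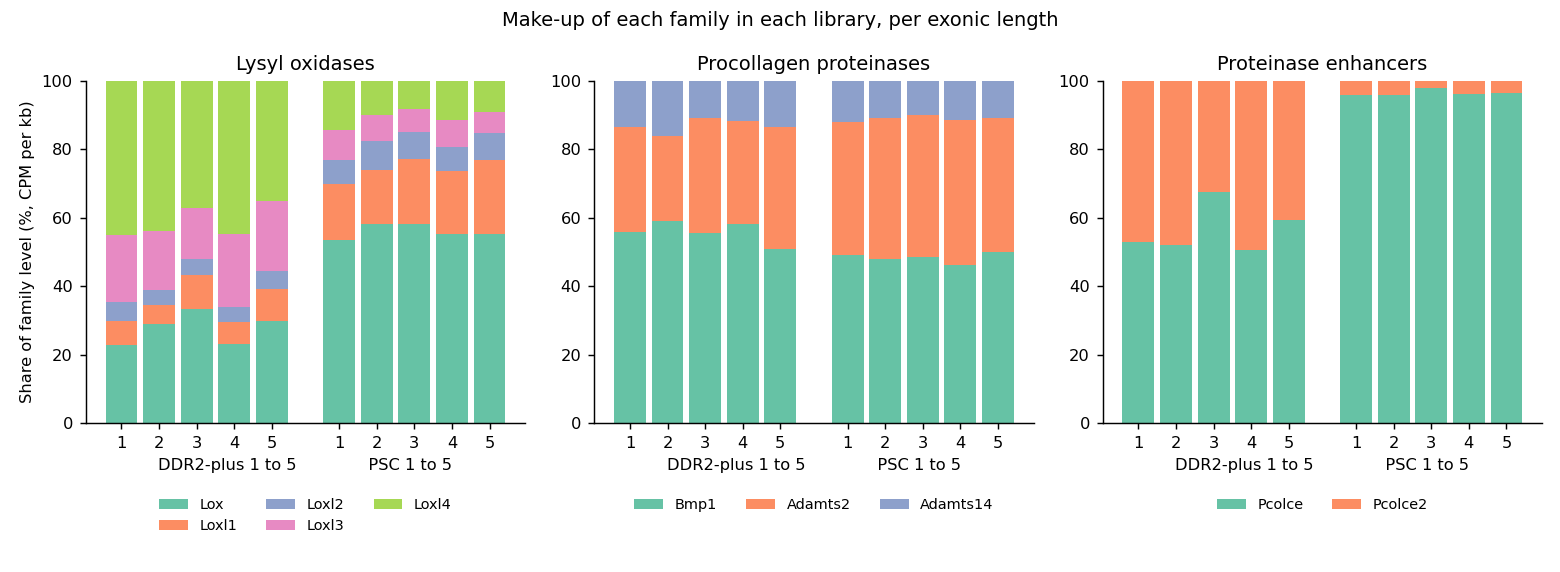
Share (%) of the summed length-scaled level (CPM per kb of exon) held by each gene of the 3 families in DDR2-plus libraries 1 to 5 (left bars) and PSC libraries 1 to 5 (right bars). Loxl4 with Loxl3, and Pcolce2, hold far larger shares in the DDR2-plus bars, while the make-up of the proteinases differs less.

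The proteinase genes were all lower in DDR2-plus. Adamts2 (chromosome 11, 50602084 to 50807573, plus strand), the N-proteinase whose loss causes fragile skin in cattle, mice and humans, was at 130, 116, 208, 137 and 194 CPM in DDR2-plus, against 623, 650, 644, 649 and 580 CPM in PSC. It had the largest drop of the 10 genes, 4.01-fold (log2 fold change -2.01, SE 0.15; edgeR adjusted p = 1.09e-06). Its relative spread was wide in DDR2-plus, with a coefficient of variation of 26.3%, and narrow in PSC at 4.68%. Adamts14 (chromosome 10, 61197112 to 61273438, minus strand), a close relative, had the lowest level per exonic length of the 10 genes in both populations. In CPM it was at 31.1, 41.3, 37.1, 30.0 and 41.0 CPM in DDR2-plus, against 108, 93.9, 85.8, 97.8 and 88.3 CPM in PSC, 2.62-fold lower (log2 fold change -1.39, SE 0.108; edgeR adjusted p = 1.34e-06). Bmp1 (chromosome 14, 70474558 to 70520234, minus strand), the C-proteinase, was at 222, 262, 324, 252 and 263 CPM in DDR2-plus, against 752, 716, 712, 672 and 699 CPM in PSC. Bmp1 was 2.68-fold lower in DDR2-plus (log2 fold change -1.42, SE 0.0908; edgeR adjusted p = 4.55e-07), and counts per gene do not separate its splice forms. Per exonic length, Bmp1 led the 3 proteinases in both populations, with 55.9% ± 3.22 of their summed level in DDR2-plus and 48.3% ± 1.42 in PSC.

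The enhancer genes parted most. Pcolce (chromosome 5, 137605103 to 137613784, minus strand) encodes the enhancer that is abundant in collagen-rich tissue. It was at 424, 517, 738, 455 and 608 CPM in DDR2-plus, against 1985, 1950, 2149, 1854 and 1977 CPM in PSC, 3.62-fold lower in DDR2-plus (log2 fold change -1.85, SE 0.134; edgeR adjusted p = 9.72e-07). Pcolce2 (chromosome 9, 95637601 to 95698096, plus strand) encodes its relative, which binds the same propeptide and is known from heart and cartilage. It was at 455, 577, 431, 534 and 502 CPM in DDR2-plus, against 102, 101, 57.8, 89.5 and 84.7 CPM in PSC. Pcolce2 had the largest rise of the 10 genes, 5.74-fold (log2 fold change 2.52, SE 0.146; edgeR adjusted p = 3.34e-07). Per exonic length, Pcolce2 made up 43.5% ± 6.97 of the summed enhancer level in DDR2-plus and 3.52% ± 0.80 in PSC (SD, n = 5 each). DDR2-plus 3 had the lowest share of Pcolce2 in its group, 32.5%, which is still well above the highest PSC share of 4.09%.

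On the length scale, which counts every annotated exon of a gene, the order of the 10 genes also differed. In DDR2-plus, Pcolce stood first at 143 ± 33.3 CPM per kb, followed by Loxl4 at 108 ± 10.8 and Pcolce2 at 108 ± 12.7, then Lox at 73.7 ± 17.4 and Loxl3 at 49.1 ± 4.35 CPM per kb. The ranges of Pcolce, Loxl4, Pcolce2 and Lox overlapped from one to the next, and Loxl4 exceeded Pcolce2 in only 2 of 5 DDR2-plus libraries. In PSC, Pcolce stood alone at 519 ± 27.8 CPM per kb and Lox second at 229 ± 21.6, with no overlap between neighbours down to Bmp1 at 80.1 ± 3.25. Loxl1 at 74.1 ± 8.01 CPM per kb overlapped both Bmp1 and Adamts2 (67.4 ± 3.16 CPM per kb), whereas Bmp1 and Adamts2 did not overlap in PSC. This order depended on the length scaling, since without it Adamts2 had 629 CPM in PSC and Loxl1 244 CPM. Pcolce2 ranked 3 of 10 in DDR2-plus and 9 of 10 in PSC, and Adamts14 was last in both, at 6.94 ± 1.03 CPM per kb in DDR2-plus and 18.2 ± 1.65 in PSC.

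The fibrillar procollagen chains, the substrates of these enzymes, moved in 2 directions as well. Of 11 chains tested, 7 were lower and 4 higher in DDR2-plus, with a median log2 fold change of -1.77. Among all tested genes 19.0% were called as lower and 20.1% as higher. The same background applies to the related lists below. Col1a1 and Col1a2, the chains of collagen I of bone and tendon, were 4.74-fold and 4.47-fold lower in DDR2-plus, and Col3a1 was 4.80-fold lower. Col2a1, the chain of cartilage collagen II, was at 81480 ± 10380 CPM in DDR2-plus, against 13390 ± 4268 CPM in PSC (SD, n = 5 each), 6.09-fold higher. Its partners Col11a1 and Col11a2 were 2.70-fold and 2.82-fold higher and Col27a1 4.49-fold higher (edgeR adjusted p at most 1.38e-06 for each).

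**Figure D3:**
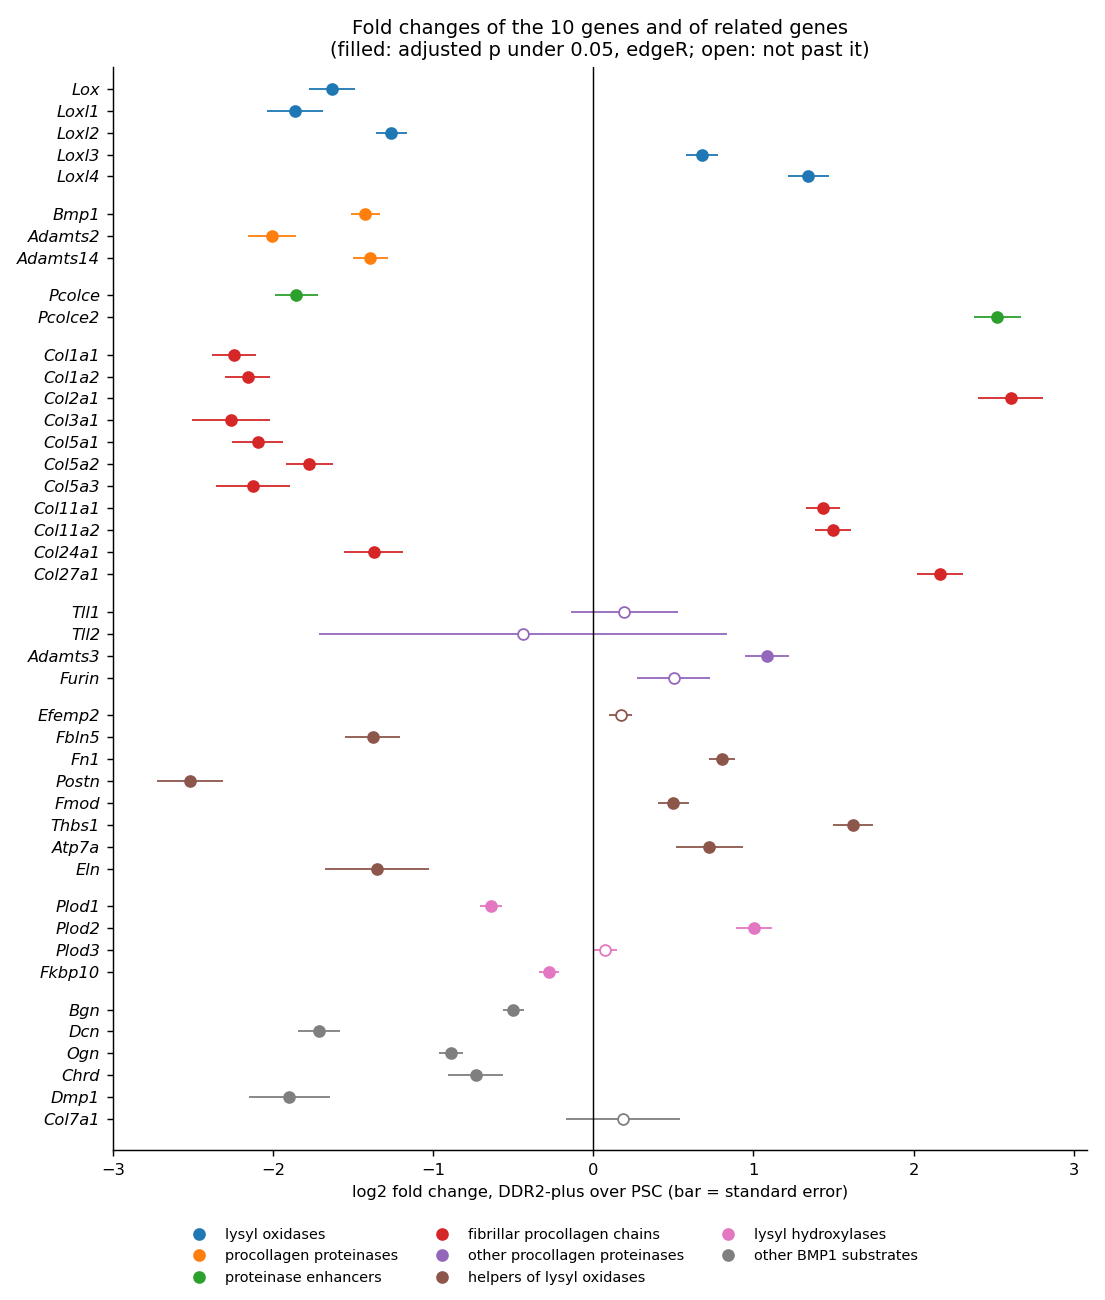
Log2 fold change, DDR2-plus over PSC, with its standard error (n = 5 libraries each) for the 10 genes and the tested genes of 5 related lists, coloured by list. Values right of 0 are higher in DDR2-plus, filled points passed edgeR's adjusted p under 0.05, and Pcolce2, Loxl4 and Loxl3 lie on the side of Col2a1, Col11a1, Col11a2 and Col27a1.

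Type I procollagen gave the proteinases and oxidases a common yardstick that needs no scaling between libraries. Per 1000 counts of Col1a1 plus Col1a2, Adamts2 had 3.22, 2.11, 2.82, 3.10 and 3.27 counts in DDR2-plus, against 2.49, 2.54, 2.47, 2.53 and 2.50 counts in PSC. The groups overlapped, and the 5 PSC libraries were nearly level. Loxl1 overlapped too, at 0.974 to 1.40 counts in DDR2-plus and 0.823 to 1.16 counts in PSC. Pcolce had 9.43 to 10.5 counts in DDR2-plus and 7.24 to 8.51 counts in PSC, and Lox had 6.13 to 7.11 counts in DDR2-plus and 3.90 to 4.72 counts in PSC. These 4 genes were thus between 1.14-fold (Adamts2) and 1.49-fold (Lox) higher per type I transcript in DDR2-plus, where the median of 13664 genes with counts in every library was 4.75-fold higher. Bmp1, Adamts14 and Loxl2 were 1.75-fold, 1.79-fold and 1.98-fold higher on this measure. Loxl3, Loxl4 and Pcolce2 exceeded the median, at 7.58-fold, 12.1-fold and 27.5-fold. In all, 8 of the 10 genes had DDR2-plus libraries wholly above PSC libraries per type I count, as did 90.4% of those 13664 genes. A further 0.176% of them lay wholly below, and none of the 10 was among these.

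Per 1000 counts of all 11 fibrillar chains, a measure chosen after the data were seen, the 7 genes that were lower in CPM were lower in DDR2-plus again. Adamts2 had 0.969 ± 0.228 counts in DDR2-plus and 2.04 ± 0.029 counts in PSC, and Pcolce 3.38 ± 0.669 counts in DDR2-plus and 6.45 ± 0.423 counts in PSC (SD, n = 5 each). Loxl2 was the one whose groups overlapped. The other 6 had no overlap, which 2.14% of the 13664 genes showed in this direction. Loxl3, Loxl4 and Pcolce2 were higher without overlap, as were 64.9% of those genes. The direction thus differed between the collagen denominators for Lox, Loxl1, Loxl2, Bmp1, Adamts2, Adamts14 and Pcolce, and was the same for Loxl3, Loxl4 and Pcolce2.

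**Figure D4:**
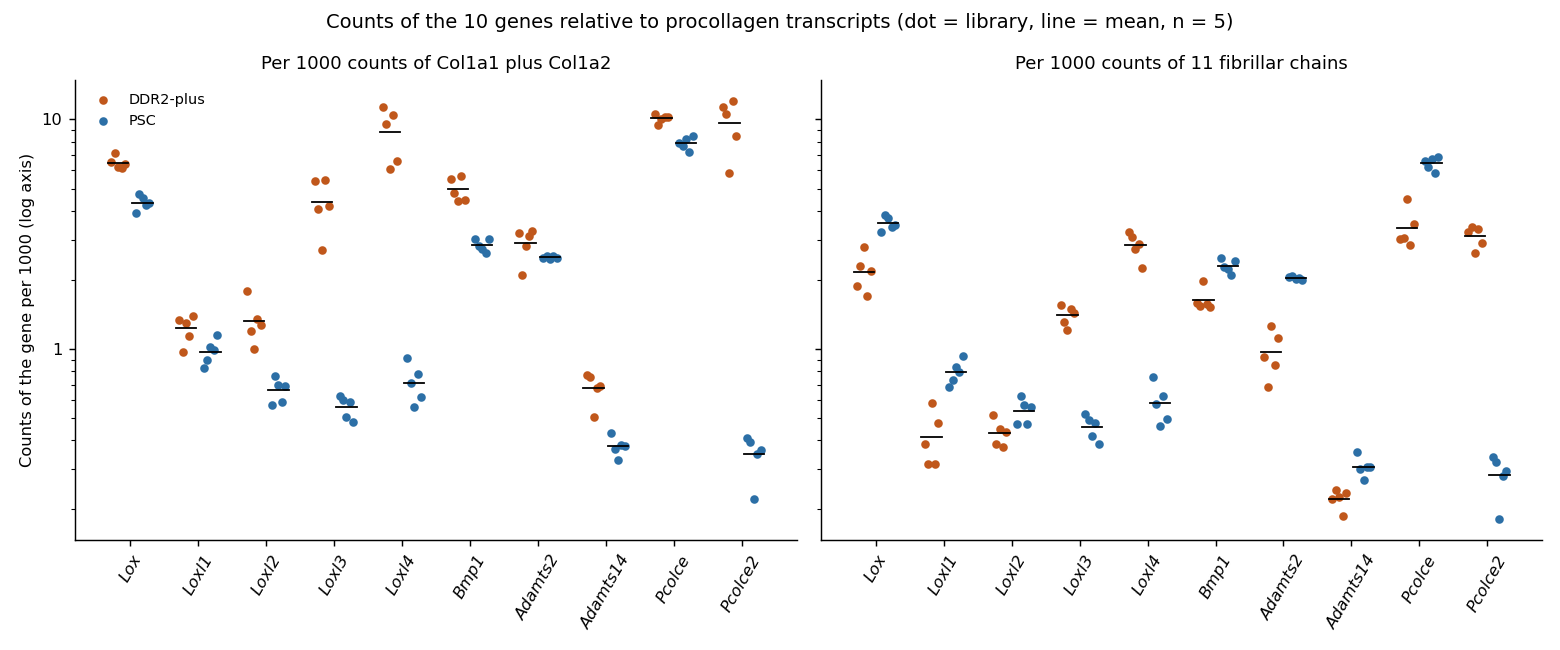
Counts of each of the 10 genes per 1000 counts of Col1a1 plus Col1a2 (left) and per 1000 counts of the 11 fibrillar chains (right), on a log axis, in 5 DDR2-plus (orange) and 5 PSC (blue) libraries with the mean as a line. Adamts2 and Loxl1 overlap between groups on the left, and on the right the 7 genes that were lower in CPM have lower means in DDR2-plus.

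Libraries of DDR2-plus differed among themselves in the genes that were lower there. DDR2-plus 3 was the highest of its group for 5 of the 7 (Lox, Loxl1, Bmp1, Adamts2 and Pcolce) and the lowest for Loxl3 and Pcolce2. The same library had the most Col1a1, 38940 CPM, where the others had 21740 to 31840 CPM, and the least Acan, the cartilage proteoglycan, 2098 CPM, where the others had 2556 to 2929 CPM. Without DDR2-plus 3, Lox had a log2 fold change of -1.76, Loxl1 of -2.03 and Adamts2 of -2.14, and all 3 kept their calls. Among PSC libraries, PSC 3 had the least Pcolce2, 57.8 CPM, and the least Acan, 429 CPM. Loxl3 and Loxl4, also higher in DDR2-plus, were lowest in PSC 5 instead, and within DDR2-plus Loxl4 was lowest in DDR2-plus 5.

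Other procollagen proteinases were mostly scarce. Adamts3, a relative of Adamts2 that has been linked to procollagen II, was at 59.6 ± 3.64 CPM in DDR2-plus, against 28.1 ± 6.15 CPM in PSC (SD, n = 5 each), 2.12-fold higher and the only one of the 4 tested genes of its list that was called (edgeR adjusted p = 4.68e-05). Tll1, a relative of Bmp1, lay between 5.01 and 11.8 CPM in DDR2-plus and reached 13.4 CPM in PSC, and Tll2 reached 0.630 CPM in DDR2-plus, against 1.30 CPM in PSC. Neither was called (edgeR adjusted p = 0.688 for Tll1 and 0.818 for Tll2). Furin, the convertase that activates several of these proteinases, was at 112 ± 28.9 CPM in DDR2-plus, against 78.9 ± 26.6 CPM in PSC and was not called (edgeR adjusted p = 0.103). It was called as higher with library size alone, by DESeq2 and without PSC 4 (adjusted p = 0.0146, 0.0459 and 0.0337 in that order). Mep1a and Mep1b had at most 0.0879 CPM in any library and were not tested.

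Of 8 genes that guide or supply lysyl oxidases or serve as their substrate, 4 were higher and 3 lower in DDR2-plus, with a median log2 fold change of 0.34. Postn, the matrix protein periostin that binds BMP1, was at 670 ± 225 CPM in DDR2-plus, against 3836 ± 581 CPM in PSC (SD, n = 5 each), 5.73-fold lower. Fbln5, the elastic fibre protein that binds LOXL1, was 2.60-fold lower, and Eln, elastin, 2.55-fold lower. Thbs1, thrombospondin 1, was 3.07-fold higher, Fn1, fibronectin, 1.75-fold higher, Atp7a, the copper pump that loads secreted copper enzymes, 1.65-fold higher with overlapping groups, and Fmod, fibromodulin, 1.41-fold higher (edgeR adjusted p at most 0.0146 for each of the 7). Efemp2, which carries LOX to elastin, was at 345 ± 29.4 CPM in DDR2-plus, against 307 ± 14.9 CPM in PSC without a call (edgeR adjusted p = 0.0786). Efemp2 was called as higher with library size alone (edgeR adjusted p = 0.000222), by DESeq2 (adjusted p = 0.0447) and without DDR2-plus 1 (edgeR adjusted p = 0.0175).

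Lysyl hydroxylation sets which cross-links lysyl oxidases can form, and its genes were mixed: 1 of 4 was higher and 2 were lower, with a median log2 fold change of -0.10. Plod2, the hydroxylase of the telopeptides, was at 256 ± 36.0 CPM in DDR2-plus, against 128 ± 15.7 CPM in PSC (SD, n = 5 each), 2.01-fold higher (edgeR adjusted p = 1.78e-05). Plod1, which acts on the helix, was 1.56-fold lower in DDR2-plus (edgeR adjusted p = 1.66e-05). Fkbp10, a partner of Plod2, was 1.21-fold lower (edgeR adjusted p = 0.00407) and lost its call with library size alone, where its log2 fold change was -0.01 (edgeR adjusted p = 0.945). Plod3, which shares 11.7% of its exonic bases with another gene, was at 104 ± 5.66 CPM in DDR2-plus, against 98.4 ± 7.34 CPM in PSC without a call, and was called as higher with library size alone (edgeR adjusted p = 0.00246).

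Of 6 other substrates of BMP1, 5 were lower in DDR2-plus, with a median log2 fold change of -0.81. Of all tested genes 19.0% were called as lower. Dmp1, the acidic protein of osteocyte matrix, was 3.73-fold lower, the proteoglycan genes Dcn, Ogn and Bgn 3.28-fold, 1.85-fold and 1.41-fold lower, and Chrd, the BMP antagonist chordin, 1.66-fold lower (edgeR adjusted p at most 0.00462 for each of the 5). Col7a1, the anchoring fibril collagen, was at 4.06 ± 1.46 CPM in DDR2-plus, against 3.57 ± 1.44 CPM in PSC (SD, n = 5 each) and was not called (edgeR adjusted p = 0.722).

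The genes whose profile over the 10 libraries was most like those of the 3 most abundant members, out of 8866 genes with a mean of at least 10 CPM, were picked by the smallest root mean square difference of centred log2 CPM. For Pcolce they were Wfdc1 (0.06), Tspan11 (0.07) and Col5a2 (0.08). Lox was nearest to Col5a2 (0.10), Cdh11 (0.11) and Ccn4 (0.12), and Bmp1 to Smox (0.07), Fkbp7 (0.07) and Tent5a (0.09). Col5a2, a chain of the collagen V that co-assembles with collagen I, thus stood near both Pcolce and Lox, at 998 ± 254 CPM in DDR2-plus, against 3411 ± 214 CPM in PSC (SD, n = 5 each). All of these genes were lower in DDR2-plus, and the difference between the groups makes up most of each profile.

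Markers of several tissues also differed between the populations, where 39.1% of all tested genes were called. Summed over a list, 6 of 6 cartilage markers were higher, at 74660 to 104800 CPM in DDR2-plus libraries and 8931 to 22090 CPM in PSC libraries. Of 5 osteoblast markers 4 were lower, at 5774 to 11850 CPM in DDR2-plus, against 28900 to 41590 CPM in PSC. Spp1 made up most of the osteoblast sum in PSC, at 22200 CPM on average. Ibsp overlapped between the groups, and Alpl was not called (edgeR adjusted p = 0.577). All tendon markers, 5 of 5, were lower, at 130 to 245 CPM in DDR2-plus, against 2471 to 3034 CPM in PSC. Neural and pineal markers, 5 of 5 higher, came to 99.6 to 199 CPM in DDR2-plus, against 0.648 to 3.04 CPM in PSC, where Rbp3 and Crx had 2 counts each over all libraries. Schwann cell markers, 4 of 4 higher, came to 156 to 537 CPM in DDR2-plus, against 6.20 to 39.0 CPM in PSC. Of the endothelial markers 2 of 4 were higher and 2 lower, at 21.4 to 36.4 CPM in DDR2-plus, against 17.9 to 40.0 CPM in PSC. Haematopoietic markers (1 of 3 tested higher) came to 11.9 to 24.5 CPM in DDR2-plus, against 6.74 to 17.5 CPM in PSC. Skeletal muscle markers (edgeR adjusted p of 0.543 or more for the 3 tested) came to 6.59 to 26.7 CPM in DDR2-plus, against 6.80 to 26.4 CPM in PSC. Mural markers (1 of 2 higher) came to 177 to 265 CPM in DDR2-plus, against 107 to 152 CPM in PSC. Nearly all of the mural sum was Acta2. Rgs5, the other mural marker, averaged 2.97 CPM in DDR2-plus, against 2.35 CPM in PSC, and was not called (edgeR adjusted p = 0.687). No marker of these lists was at 0 in all libraries of a group. The part of these cells in the changes of the 10 genes was not tested.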

How the data were processed

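The authors deposited raw counts, whole numbers for each gene symbol in 10 libraries whose totals all differ. Per the labels' protocols, 1 ng of RNA was amplified by template switching (SMART-Seq v4) and tagmented (Nextera XT), a route that keeps no strand, for paired-end sequencing with 50 cycles. The submitters' processing notes name the build mm10 and DESeq; which aligner, counter and annotation made the counts is not stated there. The groups and numbers come from the titles.

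Counts were tested with edgeR 4.0.16 (R 4.3.3): TMM factors, filterByExpr, glmQLFit and glmQLFTest with group only, and Benjamini-Hochberg adjustment over 15416 genes. The standard error of a log2 fold change is the change divided by the square root of F. DESeq2 1.42.0, limma-voom (limma 3.58.1) and other alternatives are in the closing section. Gene positions and exonic lengths come from GENCODE M21 (the same build), and log2 CPM for the profile comparison used a pseudocount of 0.5. An exonic length is the union of all annotated exons of a gene, not the length of an expressed transcript. The members and the related lists were chosen with earlier results of these data known; named are the 10 members, the genes of the related lists and, for the 3 members with the highest mean CPM, the 3 nearest profiles. Amplified reads are not independent molecules. No libraries of a group agreed within sampling noise (lowest chi-square per degree of freedom 40.9). Since no source ties libraries to animals, the spread behind each p-value is that of these libraries and may be technical. 1 further substrate of BMP1 is not reported here.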

Additional observations from a re-analysis of the deposited data

How the results depend on the processing

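Over the 18 alternative settings, all 10 genes kept their direction and their call (180 of 180 values), with the smallest change for Loxl3 at 0.60 (without PSC 5) and an adjusted p of at most 0.000967. The count of called members stayed at 10. With library size alone, 5421 genes were called higher and 1538 lower over the whole table, 2 other procollagen proteinases were called, both higher, and the lysyl hydroxylase list had 2 higher and 1 lower. DESeq2 called 2 other procollagen proteinases, both higher. Leaving out 1 library at a time gave 1 to 2 called other procollagen proteinases, 1 to 2 of them higher (Furin joined without PSC 4). Over those fits Tll2 ranged from -0.84 to 0.51 (log2) and Col7a1 from -0.015 to 0.35, neither called. Tll2 was also positive by limma-voom (0.59) and with the library number as a replicate block (1.15). The cause of these shifts was not tested, except that library size alone moves the median of all tested genes to 0.31.

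The library number as a replicate block kept the 10 calls, among them Pcolce2 at 2.54 and Adamts2 at -2.04, and gave 5742 calls over the table, against 6022 without it. Same-numbered libraries shared little of their deviation from the group means (r 0.03 to 0.05 over 15416 genes), although each correlated best with its own number. The titles give a DDR2-plus and a PSC library the same Sut number, which may mark pairs. No source used here states that they are pairs, and the main fit did not pair them. Col3a1 as the denominator kept every member higher per collagen count in DDR2-plus, with overlapping groups for 6 of them. Col3a1 itself was 4.80-fold lower in DDR2-plus, a larger drop than that of any member (at most 4.01-fold, Adamts2). For the 7 members that were lower in CPM, the direction therefore came with the denominator. Loxl3, Loxl4 and Pcolce2 were higher in CPM as well. The share of all genes was not computed for Col3a1. The 11 chains turned 7 of the members: Lox -0.73, Loxl1 -0.97, Loxl2 -0.32, Bmp1 -0.50, Adamts2 -1.11, Adamts14 -0.47 and Pcolce -0.95 (log2). Depth set no limit for the 10 genes, whose lowest count in any library was 1754.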
